A study of Mus musculus with 14 samples.

Results

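The microRNAs mmu-miR-1, mmu-miR-133a and mmu-miR-133b were followed through a mouse heart transplant series, in whole grafts, in the lymphocytes recovered from grafts and in normal heart and blood. They were taken by assay name from a TaqMan rodent microRNA card and are 3 of its 375 microRNA assays. All 3 were present on each of the 14 arrays and were tested in each comparison. The card also carries an assay for rat miR-1 (rno-miR-1), which is given beside mmu-miR-1 as a further assay and is not counted among the 3.

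miR-1 and miR-133 are made in cardiac and skeletal muscle. miR-1 and miR-133a are cut from shared primary transcripts, whose promoters are driven in muscle by factors such as SRF, MEF2 and the myogenic E-box proteins, and miR-133b comes from a separate gene next to miR-206. In muscle cells miR-1 is known for promoting differentiation, and miR-133 for restraining growth and smooth muscle genes. In the adult heart they rank among the most abundant microRNAs, and blood leukocytes are known to make little of them.

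Syngeneic grafts were C57BL/6 hearts placed in C57BL/6 recipients, with no rejection recorded, and allogeneic grafts were BALB/c hearts placed in C57BL/6 recipients and recorded as rejected. The grafts were heterotopic, an added heart beside the recipient's own, and the mice were 8 to 10 weeks old. Whole hearts were removed on day 7 (3 syngeneic and 3 allogeneic arrays) and graft-infiltrating lymphocytes (GIL) on day 5 (again 3 of each kind). For comparison, untransplanted BALB/c hearts filled 1 array, and mononuclear blood cells (PBMC) from normal C57BL/6 mice another. RNA from 3 animals was combined for every array, so n is a number of pools, and nothing in the labels ties a heart pool to a lymphocyte pool. The strain of the heart changes with the allogeneic group, and the day with the sample type, so these pairs of factors cannot be told apart.

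Sequences are from RefSeq (build GRCm38.p6), where 1 of the 3 microRNAs was matched by name. The sequence of miR-133a was not found, so whether its assay and that of miR-133b read each other's target was not checked. A count over the 3 thus may not rest on 3 separate measurements. The mature miR-133b is its 3p arm, the strand that the name without an arm denotes. It is shown with its seed, bases 2 to 8, in capitals, because the seed sets which messages a microRNA can pair with. The heart microRNAs miR-208, miR-208b and miR-499 are shown beside it, since they are the other cardiac assays that the results return to.
miR-133b (3p arm, chr1:20682834-20682855, plus strand): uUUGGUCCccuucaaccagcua
miR-208 (208a, 3p arm, chr14:54949072-54949093, minus strand): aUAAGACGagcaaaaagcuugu
miR-208b (3p arm, chr14:54975710-54975731, minus strand): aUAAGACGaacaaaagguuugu
miR-499 (5p arm, chr2:155622893-155622913, plus strand): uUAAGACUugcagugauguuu
miR-208 and miR-208b share their seed and 19 of 22 positions. miR-499 matches 6 of the 7 seed bases of both, and miR-133b matches 3 of 7. miR-133b and the miR-208 family are thus microRNAs of unlike seed.

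Mir133b lies at chr1:20682769-20682887, 3686 bases downstream of Mir206, and its precursor hairpin is shown with the mature 3p arm (bases 66 to 87) in capitals.
Mir133b hairpin: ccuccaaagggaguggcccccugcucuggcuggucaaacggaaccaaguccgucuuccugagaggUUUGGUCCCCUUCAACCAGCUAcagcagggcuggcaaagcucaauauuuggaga
Mir1a-1 (chr2:180389048-180389124) and Mir133a-2 (chr2:180398379-180398482) lie 9254 bases apart within the long noncoding transcript Mir1a-1hg (chr2:180385604-180401802). Another gene copy of each also yields the mature microRNA, and the assays cannot separate the copies. The promoter of Mir1a-1hg (chr2:180385354-180385653, plus strand, 250 bases before the start to 50 from it) is shown because its transcript holds Mir1a-1 and Mir133a-2. miR-133b, from a separate gene, differed in the same direction as miR-1 and miR-133a in each comparison that follows. The shared direction is thus not particular to this transcript, and a part of its promoter in the differences was not tested. Matches to the E-box CANNTG are in capitals.
Mir1a-1hg promoter: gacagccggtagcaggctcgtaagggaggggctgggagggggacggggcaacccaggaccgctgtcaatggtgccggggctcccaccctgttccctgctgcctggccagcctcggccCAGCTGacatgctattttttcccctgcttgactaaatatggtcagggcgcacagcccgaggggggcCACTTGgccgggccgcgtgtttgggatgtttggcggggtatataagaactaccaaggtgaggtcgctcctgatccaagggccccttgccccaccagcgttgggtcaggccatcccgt
The window held 2 matches to CANNTG on either strand, beginning 133 and 67 bases before the start, and 72.3% of the 32851 promoter windows in the table held at least 1. The match at 133 reads CAGCTG, which 16.3% of windows held. The letters TATATAA stood 29 bases before the start, as in 3.24% of windows. The MEF2 and SRF (CArG) consensus motifs had no match in these letters, and 3.19% and 1.63% of windows held them. These matches describe letters and say nothing about binding.

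Values were threshold cycles (Ct), the PCR cycle at which a well's signal crosses a threshold, so that abundant microRNAs have low Ct values and a step of 1 cycle stands for about 1 log2 unit. The level of an assay is its array's reference Ct minus its own Ct, the reference being the mean Ct over the assays detected (Ct under 35) on all arrays of the same table, 210 assays for the 7 heart arrays and 137 for the 7 GIL and PBMC arrays. A further scale, over the 133 assays detected on all 14 arrays, served comparisons across the tables. Between 228 and 260 assays were detected on heart arrays, and between 161 and 221 on GIL and PBMC arrays. Allogeneic GIL pool 3 stood apart with 161 assays and a mean reference Ct of 27.95, against 197 to 221 assays and 23.18 to 25.78 on the other arrays of that table. Allogeneic against syngeneic, the small RNA controls MammU6, snoRNA135, snoRNA202, U87 and Y1 differed by -0.43 to 0.58 log2 units in hearts and by -0.89 to 0.33 in GIL, relative to those references. The 5 leukocyte markers (both arms of miR-142, miR-150, miR-155 and miR-223) were detected on every array, hearts included. On GIL arrays the endothelial, fibroblast and smooth muscle markers were detected on every array as well. The PBMC array also held both endothelial markers, both smooth muscle markers and 1 of 3 fibroblast markers. Detection alone thus does not set GIL apart from blood, and the levels are compared further on.

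Across the 14 arrays each of the 3 microRNAs had the same order of levels, from normal heart through syngeneic heart, allogeneic heart, allogeneic GIL and syngeneic GIL down to PBMC. On the scale of all 14 arrays miR-1 stood at 6.64 in normal heart, 5.08 ± 0.48 (SD, n = 3 pools) in syngeneic heart and 3.41 ± 0.09 in allogeneic heart. It stood at 1.92 ± 1.21 in allogeneic GIL, 0.24 ± 0.01 in syngeneic GIL and -7.34 in PBMC. For miR-133a the same series ran 10.38, 9.17 ± 0.37, 7.37 ± 0.17, 5.40 ± 0.61, 3.70 ± 0.41 and -3.85. For miR-133b it ran 7.34, 6.12 ± 0.56, 4.20 ± 0.95, 2.27 ± 0.84 and 0.70 ± 0.31, with PBMC at the detection limit. No neighbouring groups of this order overlapped in any of the 3, though normal heart and PBMC were 1 array each. The rat-named miR-1 assay did overlap between allogeneic heart (2.85 to 3.28) and allogeneic GIL (1.22 to 3.61). The share of all assays without overlap was computed only for allogeneic against syngeneic arrays, and is given with those comparisons. Whether each step passed a test is given there too. PBMC minus normal heart was -13.98 log2 units for miR-1 and -14.22 for miR-133a, between arrays of different mouse strains, without replicates and without a test.

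**Figure D1:**
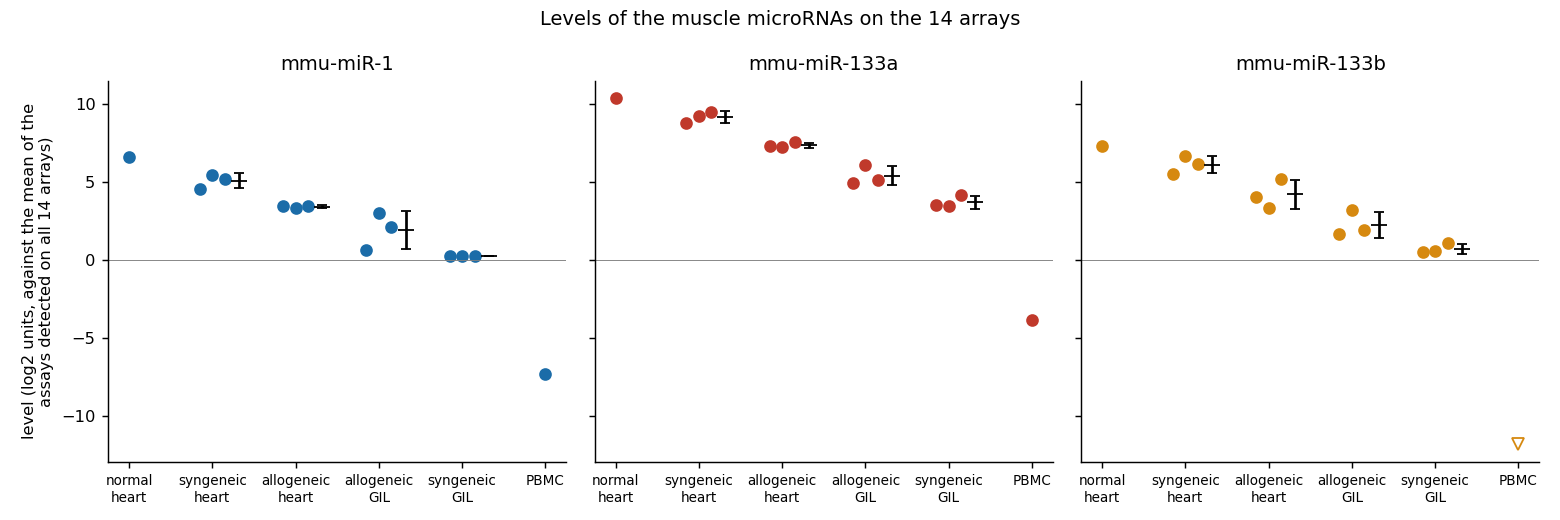
Levels of mmu-miR-1, mmu-miR-133a and mmu-miR-133b on each of the 14 arrays, in log2 units against the mean of the 133 assays detected on all arrays, by group. Filled points are arrays, the open triangle is the PBMC array on which miR-133b was undetermined (placed at the detection limit), and black bars are the mean ± SD of 3 pools. Levels step down from normal heart to PBMC in each panel, and miR-1 varies more among allogeneic GIL (SD 1.21) than among syngeneic GIL (SD 0.01).

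The central comparison set rejected allogeneic grafts against syngeneic grafts on day 7. All 3 microRNAs fell in allogeneic hearts, to about 29 to 35% of the syngeneic level. miR-133a had the lowest Ct of any microRNA assay on each of the 7 heart arrays, a rank that also depends on how well each assay amplifies. Its Ct was 12.069, 12.619 and 12.704 in syngeneic hearts, 14.142, 14.143 and 14.340 in allogeneic hearts and 11.955 in normal heart. The miR-133a level fell from 10.71 ± 0.37 (SD, n = 3 pools) to 9.05 ± 0.10, a log2 difference of -1.67 ± 0.26 (SE; 3.18-fold lower, limma adjusted p = 0.0045711). The groups did not overlap, and the lowest syngeneic level exceeded the highest allogeneic level by 1.19.

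The Ct of miR-1 was 16.311, 16.379 and 16.994 in syngeneic hearts and 17.972, 18.094 and 18.439 in allogeneic hearts, with 15.693 in normal heart. Its level fell by 1.53 ± 0.29 log2 units (SE), from 6.62 ± 0.47 to 5.09 ± 0.11 (SD, n = 3 pools; 2.89-fold lower, limma adjusted p = 0.010012). The allogeneic arrays lay close together and below every syngeneic array, by at least 0.87. The rat-named miR-1 assay differed by -1.54 ± 0.36 (limma adjusted p = 0.021603).

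The Ct of miR-133b was 15.316, 15.182 and 16.052 in syngeneic hearts and 17.378, 18.067 and 16.691 in allogeneic hearts, with 14.994 in normal heart. Its level was 7.66 ± 0.55 in syngeneic and 5.88 ± 0.88 in allogeneic hearts (SD, n = 3 pools), a difference of -1.79 ± 0.50 (SE; 3.45-fold lower, limma adjusted p = 0.038317). The allogeneic arrays spread widely, with pool 3 high at 6.79 and pool 2 low at 5.03, and the nearest allogeneic and syngeneic arrays were 0.29 apart. The call for miR-133b was lost when allogeneic pool 1 (-1.75) or 2 (-1.35) or syngeneic pool 2 (-1.53) or 3 (-1.75) was left out.

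Over all assays, 15.1% of the 238 tested were called lower in allogeneic hearts, against 3 of these 3, and 27.7% had every allogeneic array below every syngeneic array, as did 3 of 3 here. These 3 assays may not be separate measurements, as said with the sequences. The median difference was -1.67 over the 3 microRNAs and 0.02 over all assays tested. A pair of allogeneic and syngeneic arrays shared a run day in 2 cases. In the first (allogeneic pool 1, syngeneic pool 1) the differences were -0.87 for miR-1, -1.29 for miR-133a and -1.27 for miR-133b, and in the second (allogeneic pool 3, syngeneic pool 2) they were -1.94, -1.60 and -1.39. When the run day entered the fit as a fixed term, none of the 3 was called (-1.41, -1.44 and -1.33, adjusted p = 0.10327, 0.07685 and 0.07685). By quantile normalization the miR-133a difference was 0.00, since that method gives the assay of lowest Ct the same value on every array.

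Other cell types' markers moved in the same hearts. The mean level over the 7 muscle markers on the card (miR-208, miR-208b, miR-499 and miR-490 with the 3 described here) was 0.74 to 1.30 in syngeneic and -2.0 to -0.20 in allogeneic hearts. The lowest of these, allogeneic pool 2, holds an undetermined miR-490 well set to the detection limit. Over the 6 muscle markers without miR-490, an assay left out after its values were seen, the mean was 1.46 to 1.96 in syngeneic and -0.17 to 0.37 in allogeneic hearts. The leukocyte mean was 2.00 to 2.49 and 2.55 to 3.10 in the same groups, with 2 of 5 markers higher (median difference 1.02), among them miR-142-3p at 1.64 ± 0.25. Both endothelial markers fell (median -1.47), as did the 2 fibroblast markers tested (-1.89) and 1 of 2 smooth muscle markers. Of the 2 erythroid markers 1 rose. Over all assays, 41 of 238 were called higher and 36 lower. In whole tissue, fewer cells of a type and less RNA per cell cannot be told apart, and the part of these markers in the fall of miR-1 and miR-133 was not tested. Of the calls in this comparison 53.2% were higher, a share that ran from 30.0 to 64.6% under the other scalings.

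Differences between assays of the same array need no reference. The Ct of miR-133a minus that of the endothelial miR-126-3p was -2.36 to -1.91 in syngeneic hearts, -2.42 to -1.83 in allogeneic hearts and -2.03 in normal heart. The ranges overlapped, with both assays called lower in allogeneic hearts. Against the leukocyte miR-142-3p, the same difference was -9.29 in normal heart, -6.26 to -4.93 in syngeneic hearts and -2.33 to -2.06 in allogeneic hearts, 3 ranges that did not overlap. The balance of miR-133a over miR-142-3p thus narrowed from normal to syngeneic to allogeneic hearts.

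Among the remaining muscle list (miR-206, miR-208, miR-208b, miR-499, miR-486 and miR-490, of which miR-206 had no assay), 2 of 5 fell in allogeneic against syngeneic hearts. miR-208, encoded in an intron of the alpha cardiac myosin gene, fell by 1.48 ± 0.29 log2 units (limma adjusted p = 0.01178). miR-208b, encoded in the beta cardiac myosin gene, fell by 2.29 ± 0.34 (limma adjusted p = 0.0045711). miR-499, which lies in a further myosin gene, differed by -0.74 ± 0.25 and was not called (limma adjusted p = 0.058673). miR-486, shared with red cells, differed by -0.16 ± 0.24 (adjusted p = 0.60837), and miR-490 by -4.12 ± 2.47 (adjusted p = 0.23409), being detected on 2 of 3 allogeneic arrays. The Ct of miR-133a minus that of miR-208 was -12.77 to -12.28 in syngeneic and -12.71 to -11.70 in allogeneic hearts, overlapping ranges. Minus that of miR-499 it was -10.26 to -9.96 and -9.40 to -8.98, ranges that did not overlap, and the difference between the changes of these assays was not tested.

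The normal BALB/c heart placed both grafts against untransplanted tissue, as 1 array assumed to vary like the other groups. Allogeneic hearts, which are of the same strain, were lower in all 3 microRNAs. The difference was -3.09 ± 0.41 for miR-1 (8.50-fold lower, limma adjusted p = 0.0013458), -2.87 ± 0.36 for miR-133a (7.29-fold, 0.0012612) and -3.00 ± 0.71 for miR-133b (7.99-fold, 0.014455), where 25.7% of 241 assays were called lower. Of the other muscle list 4 of 5 fell, from -2.17 for miR-486 to -3.19 for miR-499. Here 4 of 5 leukocyte markers rose (median 2.46) and both endothelial and both smooth muscle markers fell. Over all assays, 63 of 241 were called higher.

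Syngeneic hearts, which are C57BL/6, differed less from the normal BALB/c heart. miR-1 was lower by -1.56 ± 0.41 and called (limma adjusted p = 0.040123), while miR-133a at -1.20 ± 0.36 (0.058204) and miR-133b at -1.21 ± 0.72 (0.25802) were not, and 7.44% of 242 assays were called lower. The rat-named miR-1 assay, at -1.80 ± 0.51, was not called either (0.053509). The miR-1 call was lost when any array but allogeneic pool 2 was left out (-1.29 to -1.74), and quantile normalization gave -0.23. Of the other muscle list 2 of 5 fell, miR-499 at -2.45 ± 0.36 and miR-486 at -2.01 ± 0.33, while miR-208b stood at -0.10 ± 0.48. Strain and transplantation cannot be told apart in this comparison. In the authors' deposited table, which sets each heart against the normal heart after subtracting snoRNA202, the relative quantity of miR-1 was 0.347, 0.557 and 0.503 in syngeneic and 0.155, 0.167 and 0.216 in allogeneic hearts.

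**Figure D2:**
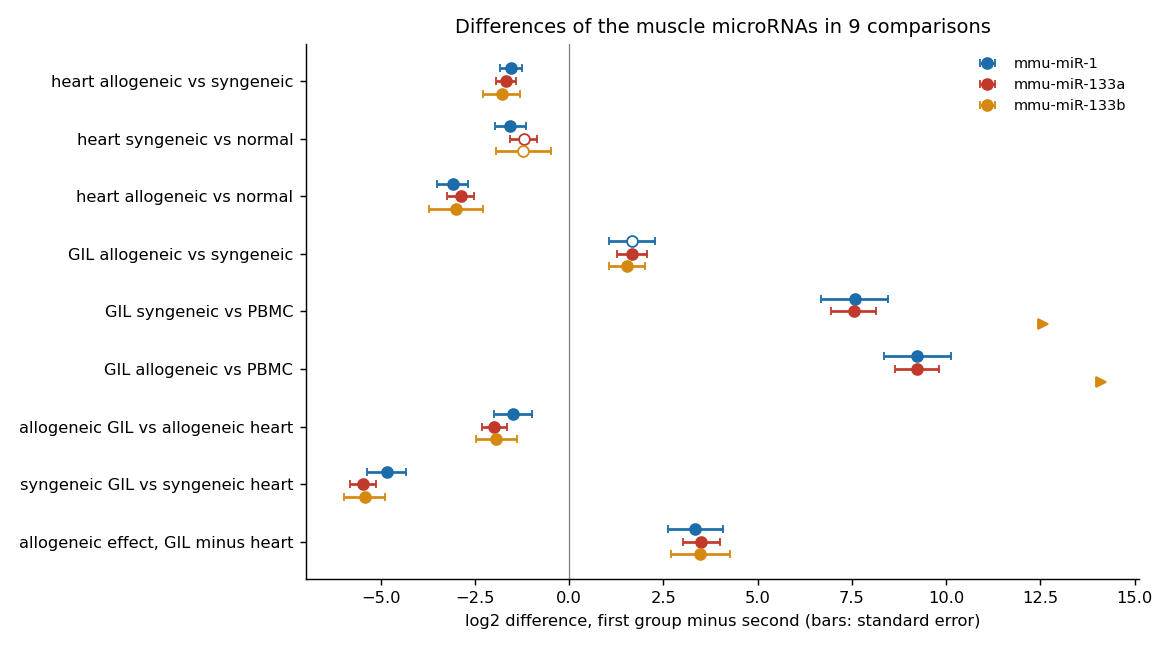
Log2 differences (first group minus second) of the 3 microRNAs in the 9 comparisons, with standard errors. Filled symbols passed an adjusted p of 0.05, and arrowheads are lower bounds, because miR-133b was undetermined in PBMC. All 3 lie below 0 in allogeneic against syngeneic hearts (-1.53 to -1.79) and above 0 in allogeneic against syngeneic GIL (1.54 to 1.67), with miR-1 open there.

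The lymphocyte table asked the same of cells recovered from grafts on day 5. In allogeneic GIL the 3 microRNAs were 2.92-fold to 3.19-fold higher than in syngeneic GIL, opposite to whole hearts, and miR-133a and miR-133b passed the test. The Ct of miR-133a was 21.201, 22.310 and 20.806 in syngeneic GIL and 19.156, 18.886 and 22.794 in allogeneic GIL. Among the microRNA assays of each array it ranked 20, 20 and 10 from the lowest Ct in syngeneic GIL. In allogeneic GIL it ranked 7, 1 and 4. Pool 3 of the allogeneic GIL had the latest Ct, but its references were late too. As levels the syngeneic arrays were 3.53, 3.47 and 4.23 and the allogeneic arrays 4.97, 6.12 and 5.16, a difference of 1.67 ± 0.40 (SE; 3.19-fold, limma adjusted p = 0.024667). The groups did not overlap, with a gap of 0.75.

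For miR-133b the Ct was 24.221, 25.165 and 23.933 in syngeneic GIL and 22.459, 21.757 and 26.010 in allogeneic GIL. The levels were 0.51, 0.61 and 1.10 against 1.67, 3.25 and 1.94, a difference of 1.54 ± 0.47 (2.92-fold, limma adjusted p = 0.047844). Allogeneic pool 2 was high, and the groups lay 0.57 apart. Its call was lost without syngeneic pool 1 (1.43), 2 (1.44) or 3 (1.81) or without allogeneic pool 2 (1.06) or 3 (1.81), and that of miR-133a without syngeneic pool 1 (1.57) or 2 (1.50).

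For miR-1 the Ct was 24.452, 25.518 and 24.735 in syngeneic GIL and 23.493, 21.966 and 25.792 in allogeneic GIL. The syngeneic levels were nearly equal, at 0.28, 0.26 and 0.30, and the allogeneic levels were spread, at 0.64, 3.04 and 2.16. The difference of 1.66 ± 0.61 (3.17-fold) was not called (limma adjusted p = 0.078739), nor was that of the rat-named assay (1.73 ± 0.64, the same adjusted p). Without allogeneic pool 1 it was 2.32 and called (0.011811). The groups were 0.34 apart.

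Of the 201 assays tested in GIL 12.4% were called higher, against 2 of these 3, and 24.4% had every allogeneic array above every syngeneic array, as did 3 of 3 here. The median difference was 1.66 over the 3 and -0.24 over all assays. Scaled to snoRNA202, the differences were 2.55 for miR-1, 2.56 for miR-133a and 2.43 for miR-133b, and scaled to MammU6 they were 2.48, 2.49 and 2.36. Without allogeneic pool 3, the array that stood apart, they were 1.65, 1.90 and 1.81, of which miR-133a alone was called (limma adjusted p = 0.030153). Of the calls in GIL 34.2% were higher, and 48.0 to 79.2% under the other scalings. Each GIL run day held arrays of 1 group, so no value within a day can be given, and run day and group cannot be told apart in GIL.

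In the same GIL arrays 2 of 5 leukocyte markers rose (median 1.00), miR-142-3p by 1.60 ± 0.34 and miR-155, an activation-induced microRNA, by 1.98 ± 0.26. All 3 fibroblast markers fell (median -1.38), led by miR-214 at -3.45 ± 0.46, and 1 of 2 endothelial markers fell. Neither smooth muscle marker was called. Over all assays, 25 of 201 were called higher and 48 lower. Within arrays, the Ct of miR-133a minus that of miR-142-3p was -0.74 to 0.60 in syngeneic and -1.07 to 0.40 in allogeneic GIL, overlapping ranges, whereas in PBMC it was 10.85. Minus that of miR-126-3p it was 2.09 to 2.34 in syngeneic and -0.97 to 0.13 in allogeneic GIL, without overlap. The part of these markers in the rise of miR-1 and miR-133 was not tested.

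The other muscle microRNAs could hardly be read in GIL. miR-208b, miR-486 and miR-490 were undetected on the GIL and PBMC arrays, so none of the 5 was tested there. miR-208 was detected on 2 of 3 syngeneic and 2 of 3 allogeneic GIL arrays, and miR-499 on 1 and 2. Where it was detected, the Ct of miR-133a minus that of miR-208 was -10.71 and -9.99 in syngeneic GIL and -11.40 and -10.48 in allogeneic GIL, against -12.77 to -11.70 over the 7 hearts. Minus that of miR-499 it was -10.74 in syngeneic GIL and -9.59 and -8.98 in allogeneic GIL, within or just past the range over hearts of -10.26 to -8.86. These low assays sit near the limit of the method, and the differences were not tested.

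**Figure D3:**
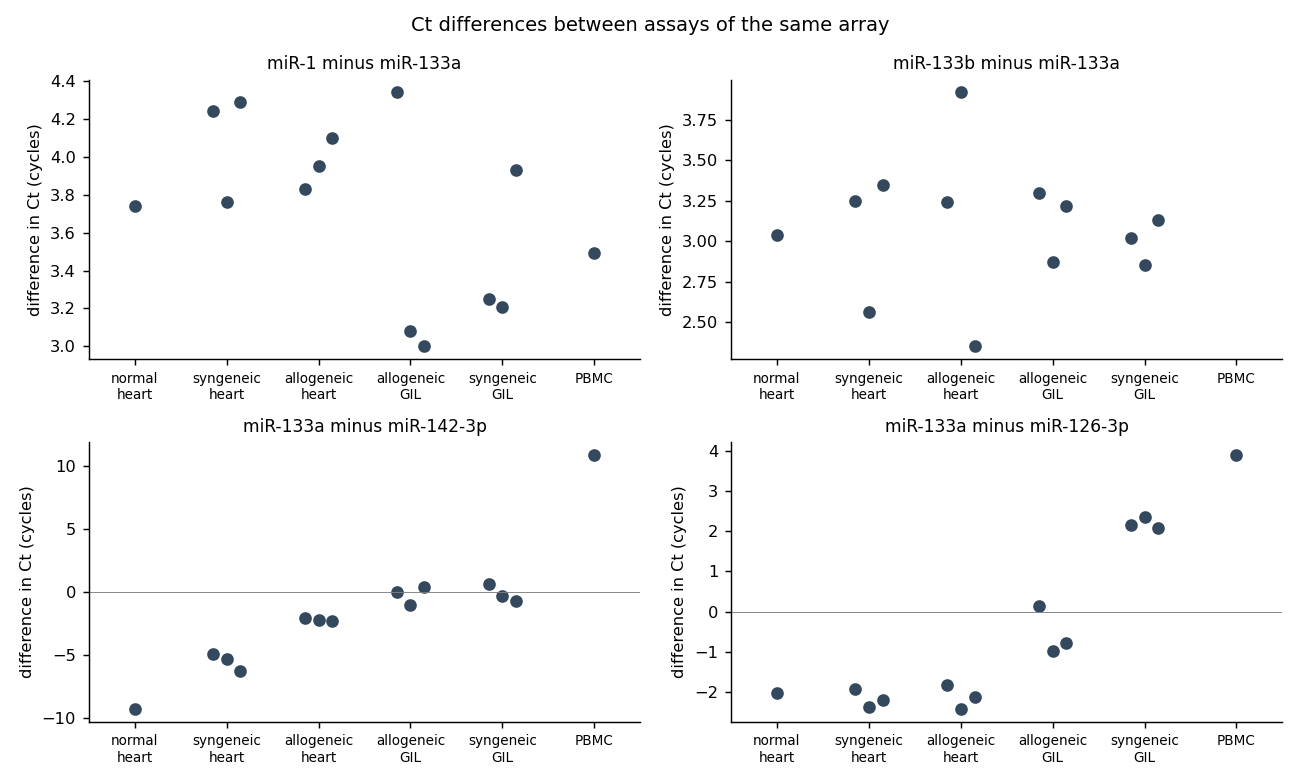
Differences in Ct between assays of the same array, by group, in cycles, with 1 point per array and no point where an assay was undetected. The miR-133a minus miR-126-3p difference spans -2.42 to -1.83 over the 7 hearts and separates allogeneic from syngeneic GIL, while miR-133a minus miR-142-3p rises from -9.29 in normal heart to 10.85 in PBMC and overlaps between both kinds of GIL.

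Against PBMC the GIL of both grafts held far more of all 3 microRNAs. In syngeneic GIL miR-1 was higher by 7.58 ± 0.89 log2 units (191-fold, limma adjusted p = 0.0010651) and miR-133a by 7.55 ± 0.59 (188-fold, 2.25e-04). miR-133b, undetermined in PBMC, was at least 12.56 log2 units higher, and 28.8% of 229 assays were called higher. In allogeneic GIL the differences were 9.24 ± 0.88 for miR-1 (606-fold, limma adjusted p = 5.52e-04), 9.22 ± 0.58 for miR-133a (598-fold, 1.11e-04) and at least 14.11 for miR-133b, against 22.2% of 212 assays. Without allogeneic GIL pool 3 these were 9.25, 9.47 and at least 14.40, with miR-1 and miR-133a called. In PBMC the Ct was 30.478 for miR-1 and 26.988 for miR-133a.

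The same PBMC comparison moved markers of graft tissue. Both endothelial markers (median 5.34 in syngeneic and 4.69 in allogeneic GIL) and both smooth muscle markers (7.18 and 7.38) were higher in GIL than in PBMC. So was the fibroblast marker miR-199a-3p (8.59 and 7.21). The other 2 fibroblast markers were undetected in PBMC, so that miR-199a-5p has only a lower bound, at least 9.62 and at least 8.31, and miR-214 at least 15.11 and at least 11.67. Of the 5 leukocyte markers, 3 were lower in syngeneic and 4 in allogeneic GIL, where 1, miR-155, was higher. Over all assays, 73 of 229 were called lower in syngeneic and 76 of 212 in allogeneic GIL. PBMC was 1 array, and the part of these markers was not tested. The authors' deposited table gives miR-133b in syngeneic GIL pool 1 a relative quantity of 215653, which rests on the undetermined PBMC well, entered there at 40 cycles.

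On the scale of all 14 arrays, GIL were set against the hearts of the same kind of graft, with day 5 against day 7. In syngeneic transplants the GIL level was lower by -4.84 ± 0.51 for miR-1 (28.5-fold, limma adjusted p = 4.55e-05), -5.47 ± 0.34 for miR-133a (44.3-fold, 4.54e-06) and -5.42 ± 0.55 for miR-133b (42.8-fold, 4.16e-05), where 25.6% of 234 assays were called lower. The other muscle list gives no measured difference there, since miR-208b, miR-486 and miR-490 were undetected on every GIL array, and miR-499 and miR-208 were detected on 1 and 2 of the 3 syngeneic GIL arrays.

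In allogeneic transplants the gap between GIL and heart was narrower. It was -1.49 ± 0.51 for miR-1 (2.80-fold, limma adjusted p = 0.044279), -1.98 ± 0.34 for miR-133a (3.93-fold, 0.0024643) and -1.93 ± 0.55 for miR-133b (3.82-fold, 0.022313), where 21.6% of 231 assays were called lower. The rat-named miR-1 assay gave -0.50 ± 0.55 and was not called (0.51628). The 2 miR-1 assays differed by tissue: rno-miR-1 minus mmu-miR-1 was -0.04 to 0.49 cycles over the 7 hearts and -0.90 to -0.46 over the 6 GIL arrays. Without allogeneic GIL pool 3 the gaps were -1.58, -1.83 and -1.74, and miR-133a alone was called. With each of the 12 transplant arrays left out in turn, the miR-1 call held in 2 fits (range -2.03 to -0.83) and the miR-133b call in 8 (-2.41 to -1.43).

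The allogeneic effect itself differed between GIL and hearts. In the contrast of contrasts over all 14 arrays, the effect in GIL exceeded that in hearts by 3.35 ± 0.72 log2 units for miR-1 (limma adjusted p = 0.013666), 3.50 ± 0.49 for miR-133a (0.0018653) and 3.48 ± 0.78 for miR-133b (0.015484). Of 241 assays 10.4% were called higher in this contrast, against 3 of 3 here, and the median was 3.48 over the 3 and -0.11 over all. Without allogeneic GIL pool 3 it was 3.30, 3.68 and 3.71, and each was called. None of the 5 leukocyte markers, 3 fibroblast markers or 2 smooth muscle markers was called, and 1 of 2 endothelial markers was (miR-126-5p, 1.22 ± 0.35). Of the 2 erythroid markers 1 was called lower (miR-451, -3.17 ± 0.87), as were 34 of the 241 assays. The other muscle list gives no measured difference in this contrast. Each of its 5 assays was undetected on some or all GIL arrays, where the limit stood in for its value.

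**Figure D4:**
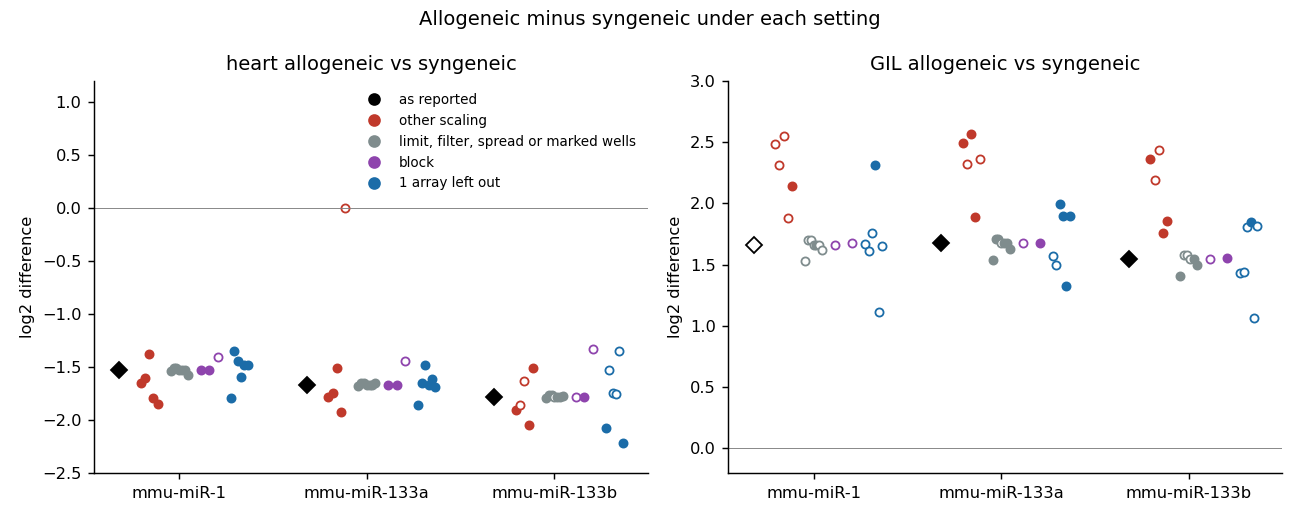
Allogeneic minus syngeneic log2 differences of the 3 microRNAs in hearts (left) and GIL (right) under each setting tried, where the diamond is the value reported and filled symbols passed an adjusted p of 0.05. Points stay on the side of 0 of the reported value except miR-133a in hearts by quantile normalization, which is 0.00, and in GIL many points for miR-1 and miR-133b are open.

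The spacing of the 3 microRNAs on the same array varied by up to 1.57 cycles within a group, the range of miR-133b minus miR-133a over allogeneic hearts. The Ct of miR-1 minus that of miR-133a was 3.74 to 4.29 over the 7 hearts, 3.00 to 4.34 over the 6 GIL arrays and 3.49 in PBMC, while the Ct of miR-133a itself ran from 11.955 in normal heart to 26.988 in PBMC. In allogeneic GIL pool 1 the spacing was widest, at 4.34, against 3.08 and 3.00 in pools 2 and 3. miR-133b minus miR-133a was 2.35 to 3.92 over hearts and 2.85 to 3.30 over GIL. Both extremes of that range in hearts were allogeneic arrays (pool 2 at 3.92 and pool 3 at 2.35), on which miR-133a stood at a Ct of 14.143 and 14.340.

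The assays whose pattern over arrays was most like that of these microRNAs were ranked by the root-mean-square difference of centred levels. Over the 7 heart arrays, against the mean of the 3, rno-miR-1 was nearest (0.268 log2 units), then miR-126-3p (0.270), miR-676 (0.279), miR-204 (0.361) and miR-126-5p (0.366), where the median over 207 assays was 1.190. Over the 7 GIL and PBMC arrays, against the mean of miR-1 and miR-133a, rno-miR-1 (0.255) was followed by miR-143 (0.973), miR-145 (0.975), miR-685 (1.235) and miR-199a-3p (1.504), with a median of 3.539 over 135 assays. Over all 14 arrays rno-miR-1 (0.631) was followed by miR-126-5p (1.847), miR-126-3p (2.000), miR-143 (2.137) and miR-145 (2.247), with a median of 3.684 over 131 assays. The GIL and PBMC ranking includes the single PBMC array, which lay far below the GIL arrays. Between allogeneic and syngeneic GIL, miR-143 differed by 0.56 and miR-145 by -0.15, neither called, against 1.66 for miR-1 and 1.67 for miR-133a. Arrays share references, so these are descriptions without a test.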

How the data were processed

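MicroRNA was measured by real-time PCR on 14 TaqMan rodent array cards. Per the labels' protocols, RNA was isolated with a mirVana kit, 100 ng from each of 3 animals was pooled, reverse transcribed and preamplified with Megaplex primers, and run on a 7900HT instrument. The authors deposited Ct values, a delta Ct on an inverted log2 scale and a relative quantity, which is a ratio to the normal array. The deposited delta Ct equalled the Ct minus that of snoRNA202 to within 0.0005 over 3189 wells with a determined Ct, the MammU6 wells left out. Baseline and threshold settings are not given in the sources used here.

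Levels were computed from Ct, with wells undetermined or at Ct 35 or later set to 35. An assay was tested when detected on every array of at least 1 compared group. Linear models were fitted with limma 3.58.1 (R 4.3.3; lmFit, eBayes, two-sided) per table, or over all 14 arrays across tables. Calls needed an adjusted p (Benjamini-Hochberg over all assays tested) under 0.05. The fit was tested on simulated data. The lone normal arrays were assumed to vary like the other groups. Where a group was undetected a difference is a bound against the limit. The named microRNAs were the 3 themselves, the muscle and marker lists, and the 5 nearest in pattern. These and the lists were chosen with earlier results of these data known. The let-7b well of allogeneic heart pool 2 carried a sample name of no sample and was not used. The instrument software marked the miR-1 well of allogeneic heart pool 1 and of syngeneic GIL pool 1. The other settings were 5 scalings, 3 detection limits, 2 filters, a mean-variance trend, replicate and run-day blocks, marked wells left out, and each transplant array left out in turn. Arrays give no counts, so their number limits the precision. p-values rest on the spread between pools within groups. For normal heart and PBMC, with 1 array each, that spread is taken from the other groups.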

Additional observations from a re-analysis of the deposited data

Results flagged for a closer look

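The allogeneic effect differed between GIL and whole hearts for each of the 3 microRNAs, by a test of the difference itself. GIL minus heart was 3.35 log2 units for miR-1, 3.50 for miR-133a and 3.48 for miR-133b (limma adjusted p = 0.013666, 0.0018653 and 0.015484). The 3 allogeneic heart arrays were lower than the 3 syngeneic ones, and the 3 allogeneic GIL arrays higher than the 3 syngeneic ones, in each case. GIL were taken on day 5 and hearts on day 7, so day and sample type cannot be told apart.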

How the results depend on the processing

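Over 27 other settings, 579 values of the 3 microRNAs were recomputed. Of these 507 kept their side of the threshold, 67 lost a call and 5 gained one, and none reversed, but 3 stood at 0.00, all of miR-133a in hearts by quantile normalization. The calls of miR-1 and miR-133a against PBMC, the calls of syngeneic GIL against syngeneic hearts, and the contrast of allogeneic effects for miR-1 and miR-133b held under every setting run for them. The run day as a fixed term was fitted for allogeneic against syngeneic hearts only, and so for none of these.

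Calls were lost as follows. Scaled to MammU6: miR-1 in syngeneic against normal hearts (-1.22), and in allogeneic GIL against allogeneic hearts miR-1 (-1.36) and miR-133b (-1.81). Scaled to snoRNA135 with snoRNA202: miR-133b in allogeneic against syngeneic hearts (-1.86), miR-1 in syngeneic against normal hearts (-1.62), miR-133a (2.32) and miR-133b (2.19) in GIL, and miR-1 (-1.57) and miR-133b (-2.02) in allogeneic GIL against hearts. Scaled to snoRNA202: the same hearts' miR-133b (-1.63) and miR-1 (-1.12), miR-133b in GIL (2.43), and miR-1 (-1.14), miR-133a (-1.63) and miR-133b (-1.59) in allogeneic GIL against hearts. By quantile normalization: miR-133a in allogeneic against syngeneic (0.00) and normal hearts (0.00), miR-133b in allogeneic against normal hearts (-1.65), miR-1 in syngeneic against normal hearts (-0.23), miR-133a in GIL (2.37), miR-1 (-0.85) and miR-133a (-1.87) in allogeneic GIL against hearts, and miR-133a in the contrast of effects (2.49). Without a filter: miR-133b in hearts (-1.79), miR-1 in syngeneic against normal hearts (-1.56), and miR-133a (1.67) and miR-133b (1.54) in GIL. With marked wells left out: miR-1 in syngeneic against normal hearts (-1.56) and in allogeneic GIL against hearts (-1.46). With the limit at 38 or undetermined wells at 40, miR-133b in GIL (1.58 in both). With the run day as a fixed term: miR-1 (-1.41), miR-133a (-1.44) and miR-133b (-1.33) in allogeneic against syngeneic hearts. Calls were gained for miR-1 in GIL by quantile normalization (2.14) and among assays detected on all arrays (1.66), and for miR-133a in syngeneic against normal hearts among those assays (-1.20) and with a mean-variance trend (-1.20). Beyond what those constructions show, the cause was not tested.

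With each array left out in turn, the ranges where a call changed were -2.21 to -1.35 for miR-133b in allogeneic against syngeneic hearts, -1.74 to -1.29 for miR-1 in syngeneic against normal hearts, 1.12 to 2.32 for miR-1, 1.32 to 2.00 for miR-133a and 1.06 to 1.85 for miR-133b in GIL, and -2.03 to -0.83 for miR-1 and -2.41 to -1.43 for miR-133b in allogeneic GIL against hearts.

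Same-numbered syngeneic and allogeneic pools had correlations of their deviations of -0.043, -0.292 and 0.119 in hearts and 0.190, 0.229 and -0.157 in GIL. Deviations from a mean of 3 pools cannot settle whether such pools shared a preparation, and the reported fit did not pair them. With the replicate block the differences were unchanged by construction, and the calls of miR-133b in hearts (-1.79, adjusted p = 0.077474) and of miR-133a (1.67, 0.067615) and miR-133b (1.54, 0.087072) in GIL were lost, while the count of calls in hearts went from 77 to 46.

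Counts of calls over all assays ran from 2 (run day as a fixed term) to 89 around 77 in allogeneic against syngeneic hearts, 31 to 80 around 73 in GIL, 24 to 55 around 46 and 58 to 129 around 125 for syngeneic and allogeneic against normal hearts, 62 to 142 around 123 for allogeneic GIL against PBMC, 42 to 204 around 89 and 74 to 227 around 118 for allogeneic and syngeneic GIL against hearts, and 14 to 62 around 59 for the contrast of effects. The share of calls that were higher moved from 60.9% to between 50 and 83.3% and from 50.4% to between 38 and 73.1% for syngeneic and allogeneic against normal hearts, from 47.5% to between 36.6 and 67.0% and from 38.2% to between 40.7 and 85.7% for syngeneic and allogeneic GIL against PBMC, from 43.8% to between 41.0 and 65.5% and from 49.2% to between 25.0 and 47.5% for allogeneic and syngeneic GIL against hearts, and from 42.4% to between 52.1 and 76.7% for the contrast, under the other scalings. These moved the median of all assays in GIL by 0.22 to 0.89 log2 units upward and in allogeneic against syngeneic hearts by -0.26 to 0.15.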
